A study of Bos taurus with 16 samples.

Results

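IFI27 (ENSBTAG00000003152) and IFI6 (ENSBTAG00000007554) are interferon-inducible genes, 2 of the 27607 gene IDs in the deposited expression table, and were measured in the liver and the skeletal muscle of the same 8 Holstein bull calves. They were chosen by their liver values, which differed between calves of different embryo origin, so that difference is given here as a description, with no test. In the embryos produced in vitro (IVP), oocytes were collected by ovum pick-up from mildly stimulated donors, fertilized and cultured in serum-free, chemically defined media and transferred fresh. In the other group, embryos formed in vivo in superovulated donors were flushed and transferred fresh (multiple ovulation and embryo transfer, MOET). There were 4 IVP calves (3208, 3209, 5833 and 5841) and 4 MOET calves (3213, 3217, 3218 and 5932), with 1 library per calf from the right liver lobe and 1 from the semitendinosus muscle. Age at sampling was 98 to 104 days in 7 calves and 144 days in MOET calf 3213.

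Parentage differed between the groups. All IVP calves and MOET calves 3217 and 3218 had the same donor, and calves 3208, 3209, 3217 and 3218 also had the same sire. IVP calves 5833 and 5841 shared another sire, and MOET calves 5932 and 3213 came from a different donor and from a sire each. All calves were raised on 1 farm and spent their last 14 days in hospital stables. No infection status is given in the sources used here.

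Type I interferons bind the receptor chains IFNAR1 and IFNAR2, whose kinases JAK1 and TYK2 phosphorylate STAT proteins such as STAT2. With IRF9 these form a complex that enters the nucleus and turns on interferon-inducible genes. IFI27 and IFI6 encode small hydrophobic proteins of the same family (FAM14, also called ISG12), which lie in intracellular membranes such as those of mitochondria and have been linked to the regulation of cell death and to antiviral defence. Both genes are widely used as readouts of an interferon response. In the RefSeq gene order of the ARS-UCD2.0 assembly, IFI27 lies between its family members ISG12(B) and IFI27L2, whereas IFI6 lies on another chromosome, between FAM76A and FGR. Reads of near-identical stretches of the neighbouring family members could have been split or lost in counting, and the libraries were not stranded.

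The 16 libraries held 22758137 to 25626474 deposited counts. Values are given as deposited counts and as counts per 1000000 counts of the library (CPM), after normalization within each organ. The counts had been adjusted for age by the authors, and those of MOET calf 3213 lay close to the mean of the other MOET calves: among well-counted genes (mean above 200), its median log2 deviation was 0.0171 (liver) and 0.0109 (muscle), against 0.102 to 0.354 and 0.105 to 0.173 in the other calves. Calf 3213 was therefore left out of means, SDs and overlaps, which cover 4 IVP and 3 MOET calves, but kept in the fits. IVP calf 5841 had the liver library with the largest of these deviations (0.354), and its normalization factor of 0.867 was below the 0.951 to 1.12 of the other liver libraries. The named hepatocyte markers (3 of 10 listed) summed to 5252 to 9661 CPM in liver and 0.972 to 36.8 CPM in muscle. The named muscle fibre markers (5 of 10) summed to 1.91 to 4.59 CPM in liver and 110269 to 146336 CPM in muscle. The highest hepatocyte sum in muscle, 36.8 CPM, was in an IVP library.

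In the liver, IFI27 was higher in each IVP calf than in any MOET calf. Deposited counts of the IVP calves were 12293 in calf 3208, 6134 in 3209, 10661 in 5833 and 16996 in 5841. The MOET calves had 2114 in calf 3217, 2586 in 3218, 1494 in 5932 and 1978 in 3213. The groups did not overlap: the lowest IVP calf, 3209, was at 266 CPM and the highest MOET calf, 3218, at 106 CPM, a ratio of 2.52. Group means were 522 ± 235 CPM in IVP calves (SD, n = 4) and 83.5 ± 24.5 CPM in MOET calves (SD, n = 3), a ratio of 6.26. The age-adjusted fit over all 8 liver libraries put the log2 difference at 2.59 (SE 0.393, 95% interval 1.83 to 3.36), and 11 of the 14290 genes tested had a higher log2 fold change.

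IFI6 had the same direction in the liver with a smaller size. Its counts were 3991 in calf 3208, 3091 in 3209, 2395 in 5833 and 3666 in 5841. In the MOET calves they were 1229 in 3217, 1515 in 3218, 1277 in 5932 and 1362 in 3213. Again the groups did not overlap, with calf 5833 the lowest IVP calf at 109 CPM and calf 3218 the highest MOET calf at 61.8 CPM, a ratio of 1.76. Means were 147 ± 31.6 CPM in IVP calves (SD, n = 4) and 53.9 ± 6.98 CPM in MOET calves (SD, n = 3), 2.72 times as high. The fitted log2 difference was 1.43 (SE 0.195, 95% interval 1.04 to 1.81), and 70 of the 14290 genes had a higher one. Of all genes tested in liver, 16.3% had the 4 IVP calves above the 3 MOET calves, and since the contrast chose the genes, nothing is read from that share.

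**Figure D1:**
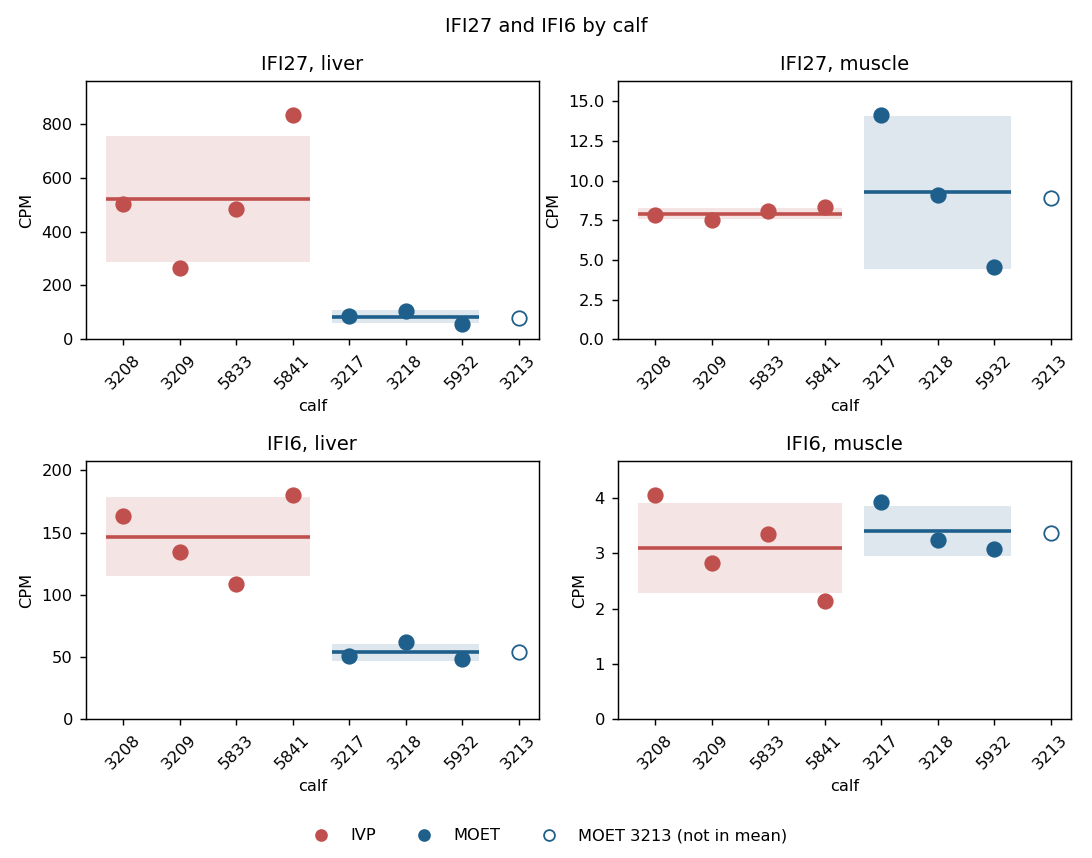
Each point is the CPM of 1 calf, for IFI27 (top) and IFI6 (bottom) in liver (left) and muscle (right); lines and bands are group mean ± SD, and the open point is MOET calf 3213, which is not in the mean. In liver the IVP calves lie at 266 to 835 CPM for IFI27 and 109 to 180.2 CPM for IFI6, above all MOET calves, and in muscle the groups overlap.

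Within calves of the same donor and sire the direction was given by the lack of overlap, and the sizes were as follows. In liver, IVP calves 3208 and 3209 averaged 385 CPM of IFI27 and MOET calves 3217 and 3218 averaged 96.7 CPM, a ratio of 3.98. For IFI6 these averages were 149 and 56.5 CPM, a ratio of 2.64. With 2 calves a side this was not tested. The IVP calves of the other sire averaged 660 CPM of IFI27 and 144 CPM of IFI6, and their values overlapped with those of calves 3208 and 3209 for both genes.

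In the muscle, both genes were low and the groups overlapped. IFI27 counts were 191, 176, 222 and 226 in IVP calves 3208, 3209, 5833 and 5841, and 340, 217, 121 and 209 in MOET calves 3217, 3218, 5932 and 3213. The IVP calves were close together, and MOET calves held both the highest and the lowest value. Means were 7.93 ± 0.356 CPM in IVP calves (SD, n = 4) and 9.26 ± 4.82 CPM in MOET calves (SD, n = 3). The log2 difference was -0.24 (SE 0.284, 95% interval -0.79 to 0.32; FDR = 0.679 by edgeR's quasi-likelihood test), and an exact two-sided permutation test of log2 CPM gave p = 0.714, with 0.0286 the smallest p this design allows. Without MOET calf 3217 the log2 difference became 0.21, and without calf 5932 it became -0.56, neither with an FDR under 0.05.

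IFI6 counts in muscle were 99, 66, 92 and 58 in IVP calves 3208, 3209, 5833 and 5841, and 94, 77, 82 and 79 in MOET calves 3217, 3218, 5932 and 3213. Here IVP calves held the extremes and the MOET calves lay between them. Counts of this size carry a counting error of 10.1% to 13.1% per library, before any difference between calves. Means were 3.09 ± 0.810 CPM in IVP calves (SD, n = 4) and 3.40 ± 0.451 CPM in MOET calves (SD, n = 3). The log2 difference was -0.13 (SE 0.217, 95% interval -0.55 to 0.30; edgeR FDR = 0.780), with an exact permutation p = 0.543. Of the 12854 genes tested in muscle, 0.467% were called at FDR below 0.05, and neither IFI27 nor IFI6 was among them.

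The origin difference in muscle minus that in liver, fitted over the 16 libraries, was -2.91 on the log2 scale for IFI27 (SE 0.459) and -1.62 for IFI6 (SE 0.264). Because it contains the liver contrast, it is given as a description. At FDR below 0.05, 23.1% of the 15237 genes were called in this comparison, and 22.9% with the calf as a replicate block. These fits include calf 3213, which lay close to the mean of the other MOET calves. Without it the number of genes called fell from 3521 to 2539, and to 1878 with no age term as well.

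Within each calf, both genes were higher in liver than in muscle. On the scale shared by the 16 libraries, IFI27 in liver exceeded muscle 40.3-fold in calf 3208, 22.1-fold in 3209, 38.5-fold in 5833 and 63.9-fold in 5841. In MOET calves the ratio was 3.84 in calf 3217, 7.09 in 3218, 7.86 in 5932 and 5.33 in 3213. IVP calves lay above all MOET calves, with higher liver values and overlapping muscle values. For IFI6 the ratio was 25.3, 29.7, 20.9 and 53.7 in IVP calves 3208, 3209, 5833 and 5841, and 8.07, 11.7, 9.91 and 9.71 in MOET calves 3217, 3218, 5932 and 3213.

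The fitted organ difference contains the liver values that chose the genes, so it too is given as a description. Liver minus muscle in MOET calves was 2.46 for IFI27 (log2, SE 0.333) and 3.29 for IFI6 (SE 0.194). In IVP calves it was 5.38 for IFI27 (SE 0.375) and 4.91 for IFI6 (SE 0.205). An organ difference is common, as 43.5% of the 15237 genes were called higher in the liver of MOET calves and 40.2% in that of IVP calves. The median over all genes was 0.13 in MOET calves and 0.07 in IVP calves. IFI27L2, the third family member with a name in the sources used here, had a liver minus muscle difference of -0.07 in MOET calves (FDR = 0.825) and of 1.54 in IVP calves (FDR = 0.000133).

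**Figure D2:**
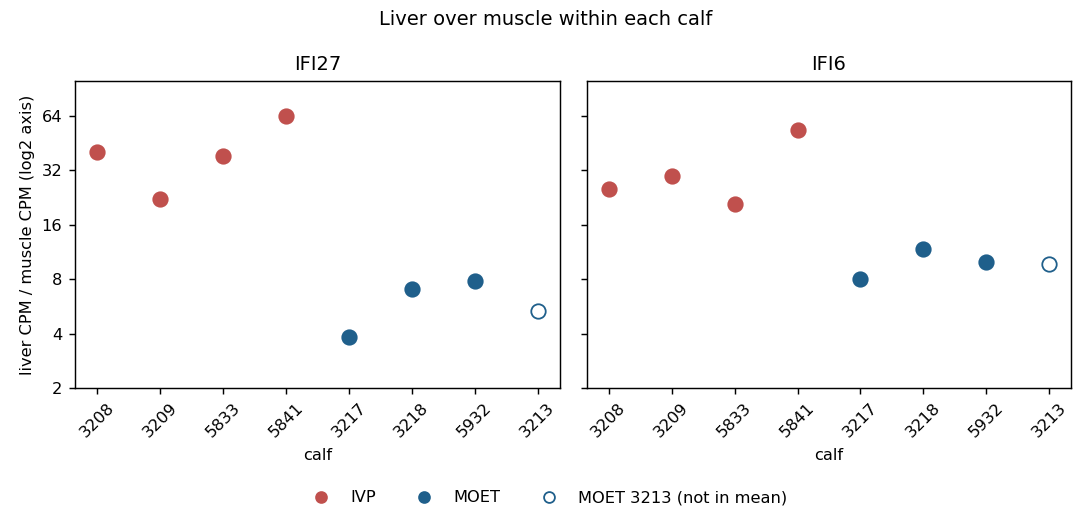
Each point is the liver CPM of 1 calf divided by its muscle CPM, on a log2 axis, for IFI27 (left) and IFI6 (right); the open point is MOET calf 3213. The ratio is 22.1 to 63.9 in IVP calves and 3.84 to 7.86 in MOET calves for IFI27, and 20.9 to 53.7 against 8.07 to 11.7 for IFI6.

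Whether the genes move together across calves could be described but hardly tested. In liver the IVP and MOET calves form separate clusters for both genes, so no correlation over the calves was computed. Among IVP calves, both genes had 5841 highest and 3208 second. The remaining calves changed places, IFI27 being higher in 5833 than in 3209 and IFI6 higher in 3209 than in 5833. Among MOET calves both genes had the order 3218, 3217, 5932. Each of these orders rests on 3 or 4 calves.

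The deposited, age-adjusted counts of IFI27 per count of IFI6, which do not depend on library size, show where the genes parted. In liver this ratio is made of the values that chose the genes, so it is a description. In the liver of IVP calves the ratio was 3.08 in calf 3208, 1.98 in 3209, 4.45 in 5833 and 4.64 in 5841. In the liver of MOET calves it was 1.72 in calf 3217, 1.71 in 3218, 1.17 in 5932 and 1.45 in 3213. All IVP calves were above all MOET calves, with calf 3209 near the MOET values. In muscle the ratio ran from 1.93 to 3.90 in IVP calves and from 1.48 to 3.62 in MOET calves, and the groups overlapped. The spread between IVP livers was also wider for IFI27 (highest over lowest 3.14, SD 0.68 on the log2 scale) than for IFI6 (1.66, SD 0.32).

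In muscle, Pearson's r between log2 CPM of the genes was 0.299 over 7 calves (exact permutation p = 0.516, adjusted 1 over the 4 relations planned) and Spearman's rho was 0.25 (exact permutation p = 0.595). Without calves 5932 and 3217, the farthest from the median of IFI27, r was -0.11, so the positive sign rests on those calves. Calf 5841, the highest of the IVP calves for both genes in liver, had in muscle the highest IFI27 and the lowest IFI6 of the IVP calves. Among MOET calves the muscle order was 3217, 3218, 5932 for both genes. The other planned relations, those of the genes in liver and of each gene between liver and muscle, were not computed because the liver groups form separate clusters.

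**Figure D3:**
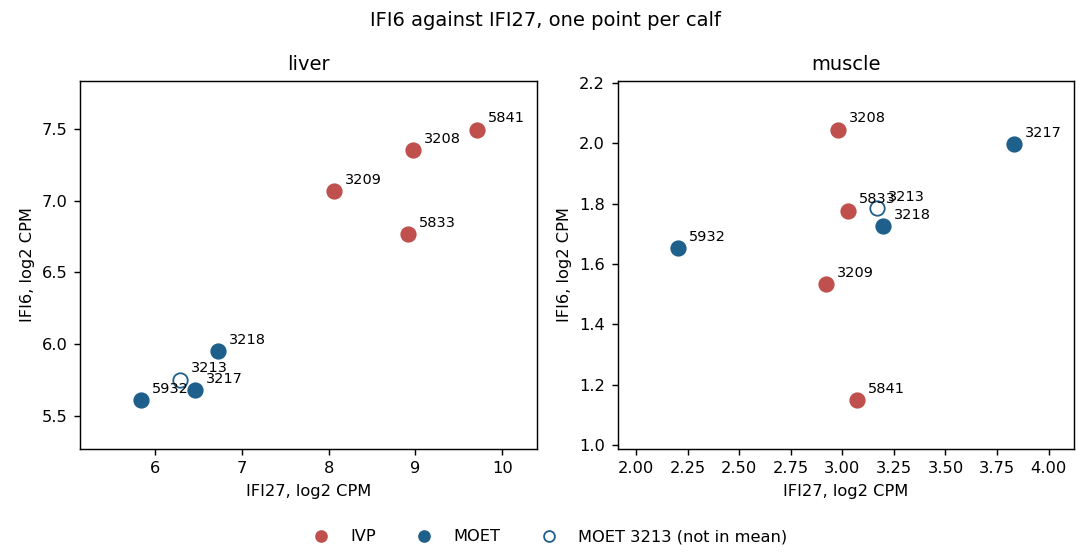
IFI6 against IFI27 in log2 CPM, with 1 labelled point per calf, for liver (left) and muscle (right); the open point is MOET calf 3213. Liver values form an IVP and a MOET cluster, while in muscle the groups mix and r over 7 calves is 0.299.

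Next, the genes whose pattern was most like that of each member were sought among 6883 genes with a mean of at least 5 CPM in each organ, by Pearson's r over the 14 libraries of 7 calves after centring each organ. For IFI27 these were UPF2, a factor of nonsense-mediated mRNA decay (r = 0.920), ABTB1 (0.920), NFYB, a subunit of the CCAAT-binding factor NF-Y (0.913), LOC514011 (0.900) and ACAA1, a peroxisomal thiolase of fatty acid oxidation (0.899). For IFI6 they were GPR146, a G protein-coupled receptor (0.910), VKORC1, an enzyme of the vitamin K cycle (0.910), IFITM3 with ID ENSBTAG00000052306, an interferon-induced membrane protein that restricts virus entry (0.909), BCAP31, a chaperone of the endoplasmic reticulum (0.905) and DHRS3, a retinal reductase (0.897). Between IFI27 and IFI6 themselves r was 0.880, which put IFI6 in place 8 for IFI27 and IFI27 in place 11 for IFI6. IFI6 itself was under 5 CPM in muscle. All these values share the libraries and the separation of the liver groups, by which IFI27 and IFI6 were chosen, and they are descriptions. The r and the places of IFI27 and IFI6 therefore do not show whether the genes move together across calves.

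Other genes of the interferon pathway give the context. A name could be attached to 31 of 115 listed symbols, including IFI27 and IFI6, because names come from the supplementary tables of the study, and 10 of the 30 further IDs were named by its list of liver differences. The directions of these 10 in liver are therefore not independent of that choice. The other 20 were named only by other lists of the study, which also come from its comparison of IVP and MOET calves. The 30 IDs were thus not picked without regard to embryo origin. Nothing is read from their counts beside the shares of all genes. No ligand (of 10 listed) and no nucleic acid sensor (of 15) had a name, nor had MX1, IRF7 or IRF9, so these were not analysed here. Of the 30 further IDs, none was called between IVP and MOET calves in liver by edgeR, where 0.035% of the 14290 genes were, while at an unadjusted p below 0.05 there were 13 higher and 4 lower. That threshold was passed by 14.8% of all genes in the higher and 15% in the lower direction. DESeq2 called 7 of the 30 higher and 2 lower, and 11.6% of all genes.

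In the family, IFI27L2 was at 9.98 ± 5.18 CPM in the liver of IVP calves (SD, n = 4) and 3.61 ± 0.628 CPM in that of MOET calves (SD, n = 3). Its log2 difference was 1.40 (SE 0.362, edgeR FDR = 0.125, DESeq2 FDR = 0.00839). The 4 IVP calves lay above the MOET calves, at 7.00, 7.64, 7.54 and, in calf 5841, 17.7 CPM, against 3.17 to 4.33 CPM. In muscle the groups overlapped, with a log2 difference of -0.09 (FDR = 0.882).

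Among receptors, IFNAR1, the first chain of the type I interferon receptor, had a negative difference in liver. It was at 25.6 ± 8.34 CPM in IVP calves (SD, n = 4) and 50.7 ± 5.83 CPM in MOET calves (SD, n = 3), without overlap, with a log2 difference of -0.96 (edgeR FDR = 0.125, DESeq2 FDR = 0.0185). The second chain, IFNAR2, had a log2 difference of 0.24 (FDR = 0.162), and IFNGR1, a chain of the receptor for interferon gamma, of 0.29 (FDR = 0.147). In muscle IFNAR1 was at 0.56 (FDR = 0.158) and IFNAR2 at 0.46 (FDR = 0.177).

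In the signalling step, the kinases JAK1 and TYK2 were at -0.09 (FDR = 0.595) and -0.36 (FDR = 0.173) in liver, and STAT2, a partner in the nuclear complex, at -0.67 (FDR = 0.171). STAT2 did not overlap between the groups, with 44.2 to 127 CPM in IVP livers and 142 to 175 CPM in MOET livers, where 16.7% of all genes had the 4 IVP calves below the 3 MOET calves. IRF3, a transcription factor that induces interferon genes, had a log2 difference of 0.49 (FDR = 0.151). CISH, an inhibitor of cytokine receptor signalling, stood out in size with 55.5 ± 10.1 CPM in IVP livers (SD, n = 4) against 21.6 ± 4.13 CPM in MOET livers (SD, n = 3), a log2 difference of 1.36 (FDR = 0.0673 by edgeR and 1.30e-07 by DESeq2). None of the 7 JAK, STAT and IRF genes was called in either organ.

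Of the 14 further interferon-inducible IDs, 7 had a log2 difference above 0 in liver and 7 below, where 49.7% of all genes were above 0. Their median was 0.03, beside -0.004 over all genes. ISG15, a ubiquitin-like modifier, was at 1.11 (FDR = 0.128), with 37.3 ± 19.8 CPM in IVP calves (SD, n = 4) and 16.5 ± 4.59 CPM in MOET calves (SD, n = 3). The pair of IDs named IFITM3 were at 1.51 (ENSBTAG00000019015, FDR = 0.126) and 0.92 (ENSBTAG00000052306, FDR = 0.126). How alike the sequences of these IDs are was not tested. IFI35 was at 0.74 (FDR = 0.131) and IFI44 at 0.11 (FDR = 0.712).

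Other members of this list had differences below 0. EIF2AK2, the RNA-activated kinase PKR, was at 12.1 ± 3.05 CPM in IVP livers (SD, n = 4) and 22.9 ± 7.03 CPM in MOET livers (SD, n = 3), a log2 difference of -0.91 (edgeR FDR = 0.125, DESeq2 FDR = 0.0230). ADAR, which edits double-stranded RNA, was at -1.003 (FDR = 0.138), and OAS2, an oligoadenylate synthetase, at -0.97 (FDR = 0.175). By DESeq2, 3 of the 14 IDs were called higher and 1 lower, beside 11.6% of all genes. The mean log2 CPM of the 14 IDs was 3.66 to 4.00 in IVP livers and 3.64 to 4.05 in MOET livers, a mean over IDs that go both ways.

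**Figure D4:**
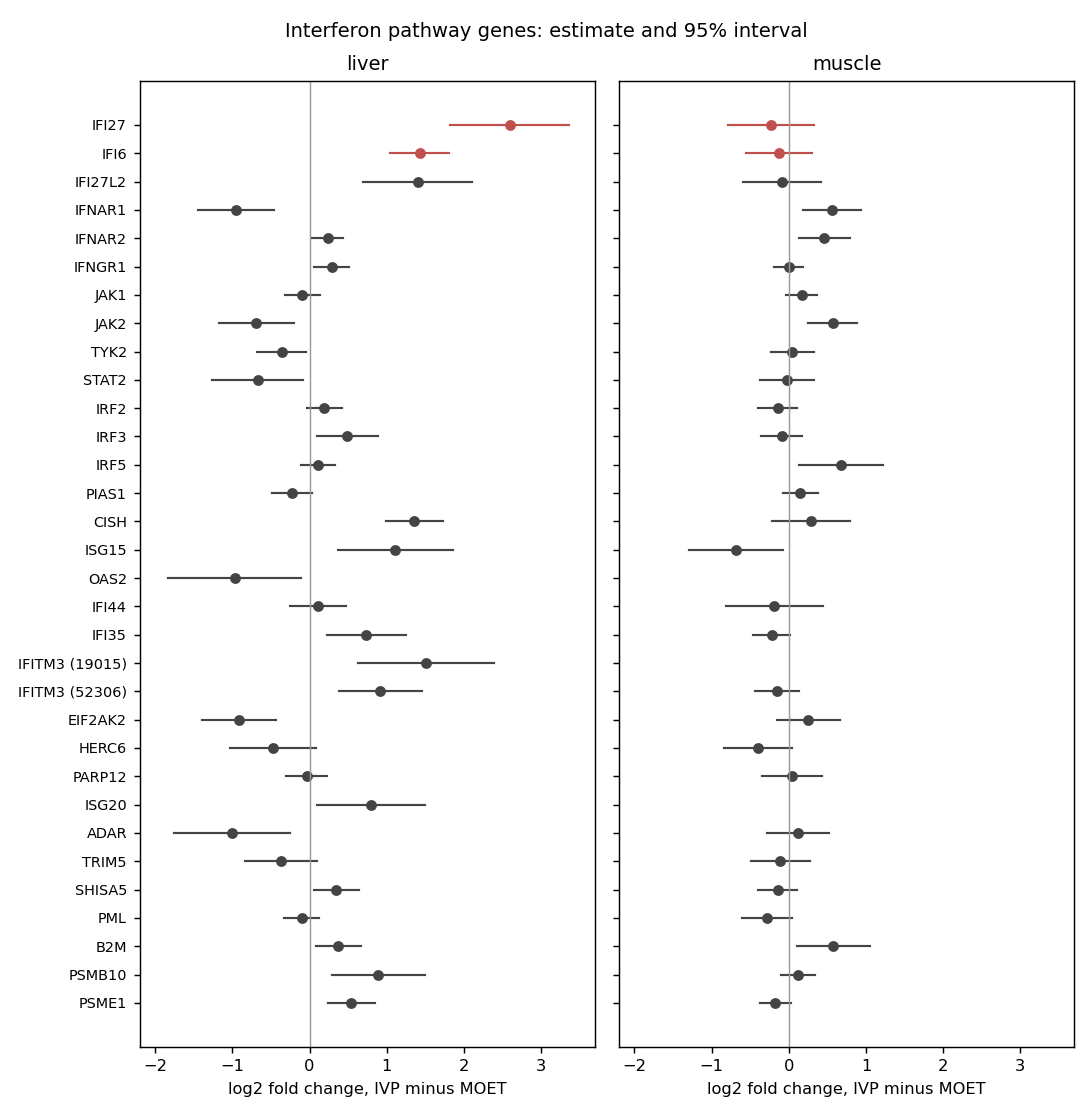
Log2 fold change of IVP minus MOET calves with its 95% interval for IFI27 and IFI6 (red) and the 30 further named pathway IDs (grey), in liver (left) and muscle (right); IDs with too few counts in muscle have no point. In liver IFI27 is at 2.59 and IFI6 at 1.43, and the interferon-inducible IDs lie from -1.003 to 1.51; in muscle IFI27 and IFI6 lie at -0.24 and -0.13.

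In muscle, 11 of the 14 interferon-inducible IDs had enough counts to be tested, 3 with a log2 difference above 0 and 8 below, with a median of -0.15 beside 0.02 over all genes. Over all genes 52.3% were above 0. None of the 11 was called by edgeR or by DESeq2. DESeq2 gave no FDR for IFI44 and called 4.21% of the genes it tested. At an unadjusted p below 0.05 there was 1, ISG15, at -0.69 (FDR = 0.250), and 8.43% of all genes were below 0 at that threshold. Of the genes of antigen presentation, B2M, the light chain of MHC class I, was at 0.38 in liver (FDR = 0.146) and 0.58 in muscle (FDR = 0.222). PSMB10, a subunit of the immunoproteasome, was at 0.89 in liver (edgeR FDR = 0.128, DESeq2 FDR = 0.0475) and 0.11 in muscle (FDR = 0.597). PSME1, a proteasome activator subunit, was at 0.54 in liver (edgeR FDR = 0.125, DESeq2 FDR = 0.0330) and -0.18 in muscle (FDR = 0.364).

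Among calves, MOET calf 3217 had the highest value of the 7 calves for 7 of the 14 interferon-inducible IDs in liver and for 6 of the 11 in muscle. Over all genes tested it was highest for 20.6% in liver and 9.6% in muscle. The IDs in liver included EIF2AK2, ADAR, OAS2 and HERC6, and those in muscle ISG15, HERC6 and IFI44. It was also the calf with the highest IFI27 in muscle, 14.2 CPM. In liver the same calf had 87.9 CPM of IFI27 and 51.1 CPM of IFI6, within the range of the MOET calves. IVP calf 5841 was highest for 6 of the 14 in liver, among them ISG15, IFI35 and IFITM3, and for 33.4% of all genes. This comparison was chosen after the values were seen.

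Markers of liver cells did not overlap between the groups for several lists, as was so for 16.3% (above) and 16.7% (below) of all genes in liver. The 4 named macrophage and Kupffer cell markers (of 10 listed: CSF1R, C1QA, C1QB and C1QC) summed to 1562 to 2713 CPM in IVP livers and 1164 to 1475 CPM in MOET livers, and each of the 4 lay above in all IVP calves. None of them was at 0, and edgeR called 0 and DESeq2 3 of the 4, where DESeq2 called 11.6% of all genes. C1QA, C1QB and C1QC were named by the study's list of liver differences, and CSF1R by another of its lists. Their direction and calls are therefore not independent of that choice, and nothing is read from them. The list of liver differences also named VWF, COL1A2, COL3A1 and the hepatocyte markers APOA1, TTR and APOB. In muscle the sum of the 4 macrophage and Kupffer cell markers overlapped, at 19.6 to 55.4 CPM in IVP and 27.5 to 37.4 CPM in MOET calves. Named stellate cell and fibroblast markers (4 of 7) summed to 499 to 660 CPM in IVP and 794 to 843 CPM in MOET livers. Their sums in muscle were 808 to 1153 CPM in IVP and 1295 to 1624 CPM in MOET calves. Of these markers, DCN overlapped in liver, with a log2 difference of -0.001 (edgeR FDR = 0.996). The named endothelial markers (2 of 6) summed to 76.9 to 95.1 CPM in IVP and 99.7 to 125 CPM in MOET livers, although CDH5 and VWF each overlapped, and to 85.2 to 139 CPM in IVP and 71.8 to 79.1 CPM in MOET muscle. The named hepatocyte markers summed to 7137 to 9661 CPM in IVP and 5252 to 6084 CPM in MOET livers, with log2 differences of 1.66 for APOA1, 0.61 for TTR and -0.67 for APOB. S100A9, the 1 named granulocyte marker of 6, was at 2.21 to 6.93 CPM in IVP and 0.997 to 2.08 CPM in MOET livers. In bulk tissue, more cells of a type and more RNA per cell cannot be told apart, and the part of these cells in the IFI27 and IFI6 values was not tested.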

How the data were processed

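Polyadenylated RNA was sequenced unstranded in 16 libraries. The authors filtered reads with SOAPnuke, aligned them with STAR (version 2.7 per the labels) to bosTau9, obtained gene counts with HTSeq-count, and then removed an age effect from them with sva. The deposited values are whole numbers and were treated as estimated counts, with no library-size scaling. The design had assumed raw counts. Rounding changed 0 values, and 0 columns belonged to other samples. Names for 4168 of the 27607 IDs came from the supplementary tables of the study.

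Genes were filtered with filterByExpr (minimum count 10, total 15), normalized by TMM and tested with edgeR 4.0.16 (quasi-likelihood, age as covariate, Benjamini-Hochberg FDR at 0.05) within each organ and over the 16 libraries. Log2 CPM used a prior count of 2. The 95% intervals are approximate, estimate ± 1.96 SE, and narrower than the quasi-likelihood test implies. In liver, for example, those of TYK2, STAT2 and OAS2 exclude 0 although the unadjusted edgeR p was 0.0537, 0.0523 and 0.0553. Counting errors cover counting only. DESeq2 1.42.0 was an alternative, in R 4.3.3, and figures were drawn with matplotlib 3.10.9. The edgeR fits with age as covariate were first tested on simulated counts for liver, muscle, their difference and the organ contrast in MOET calves. The other fits and contrasts were not.

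Liver and muscle of a calf were paired by design. Deviations of the paired libraries from their group means correlated at -0.09 to 0.18. Marker and pathway lists were under 80% named, so no list test was run, and 1 listed marker is not reported here. Genes named with values were the family, fixed receptors, signalling and inducible genes and any listed gene called by edgeR, and others named were chosen after their values were seen. The members, lists and tests were chosen with earlier results of these data known.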

Additional observations from a re-analysis of the deposited data

Results flagged for a closer look

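Dixon's test was run on 61 groups of the 4 IVP calves, for IFI27, IFI6 and the named pathway genes in each organ. In 8 groups 1 calf lay far from the others, and neither IFI27 nor IFI6 was among them. The test flags about 1 in 20 groups by chance. It was not run over all genes, and the groups share the same 4 calves, so nothing is read from the number. Calf 5841 also had the liver library with the largest deviation over well-counted genes (0.354). IVP calf 5841 stood apart in liver for 5 genes: above the others for IFI27L2 (17.7 CPM, others 7.00 to 7.64), IRF3 (96.1 CPM, others 54.4 to 60.7) and IFI35 (44.7 CPM, others 21.2 to 24.9), and below them for JAK2 (2.90 CPM, others 5.51 to 5.99) and TRIM5 (6.14 CPM, others 11.5 to 12.6). IVP calf 5833 stood apart in muscle, above the others for IFI27L2 (3.31 CPM, others 1.70 to 1.88), IRF5 (4.80 CPM, others 2.37 to 2.68) and B2M (264 CPM, others 119 to 137).

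The origin difference differed between muscle and liver, by the fit over 16 libraries, for 12 of the 30 named pathway IDs other than IFI27 and IFI6, beside 23.1% of all genes. Muscle minus liver was below 0 on the log2 scale for ISG15 (-1.90), IFI27L2 (-1.62), IFITM3 with ID ENSBTAG00000052306 (-1.17), CISH (-1.10), IFI35 (-1.03), PSMB10 (-0.87), PSME1 (-0.78), IRF3 (-0.65) and SHISA5 (-0.54). It was above 0 for IFNAR1 (1.49), JAK2 (1.23) and EIF2AK2 (1.13). All of these but IRF3, SHISA5 and JAK2 were named by the study's list of liver differences. Since the comparison contains the liver contrast, nothing is read from their number beside the share of all genes. With the calf as a replicate block, 13 of the 30 were called, IRF3 (FDR = 0.0630) and PSMB10 (FDR = 0.0596) no longer among them and IRF2, ADAR and the other IFITM3 ID added. The values of IFI27 (-2.91) and IFI6 (-1.62) are descriptions, since they contain the contrast that chose these genes.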

How the results depend on the processing

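The log2 differences of IFI27 and IFI6 in liver stayed above 0 in all 17 alternatives each, at 1.93 to 2.83 and 1.33 to 1.56. The 1.93 came from calves of the same donor and sire. IFI27 and IFI6 were chosen by this contrast and their liver groups do not overlap, so nothing is read from the constant sign. Liver minus muscle of both genes stayed above 0 in all 15 alternatives in each group. That difference contains the same liver values and is a description too. In muscle, leaving out 1 calf gave -0.56 to 0.21 for IFI27, its sign turning without replicate 3217, and -0.29 to -0.001 for IFI6, with no FDR under 0.05. The r between the genes in muscle was -0.11 without the farthest calves. Interferon-inducible IDs above 0 in muscle numbered 1 to 4 when 1 calf was left out, 1 without calf 3218.

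The number of genes called depended strongly on the model. In liver it was 5, and became 2998 with no age term, 17 with no filter, 1588 with DESeq2, 4657 with DESeq2 and no age term, and 1 to 2187 without 1 calf (2187 without 3213, 1219 without 5841, 101 without 3208). In muscle it was 60, and became 1174, 186, 468, 1619 and 6 to 350 in that order. Without calf 3213 and with no age term, 5 genes were called in liver and 83 in muscle. For muscle minus liver it was 3521, and became 1370 with an age slope for each organ, 1878 without calf 3213 and no age term, and 1477 to 4306 without 1 calf. With the calf as a replicate block it was 3491, and the organ contrasts had 12448 and 11746 calls, with no change of sign for IFI27 or IFI6. The cause of these changes was not tested. Counts of IFI6 in muscle (58 to 99) limit what could be seen there. The DESeq2 fits with no age term and the organ age slopes were chosen after seeing the data.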
